A study of Mus musculus with 14 samples.

Results

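The genes described here are the chromosomal neighbours of Tet2 in mouse B cells labelled as lacking that gene or depleted of it. Tet2 lies on the minus strand of chromosome 3 (GRCm38, 133463679 to 133544390), and its neighbours were taken as all gene rows lying wholly within 10 Mb of it on either side that had at least 10 read counts summed over the 7 germinal center (GC) B-cell libraries. The window held 167 rows of the count table. Of these, 9 were left out by name (Tet2 itself, Nfkb1, Lef1, Cenpe, Arhgef38 and the guanylate-binding protein genes whose names start with Gbp), and 93 had fewer than 10 counts, 71 of them with 0. This left 65 genes of the 17558 rows in the whole table with at least 10 counts. Of the 65, 35 lay at lower coordinates than Tet2 and 30 at higher coordinates. Apart from the rows left out by name, the choice rests on position and on a minimum of counts.

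TET2 is a dioxygenase that oxidises 5-methylcytosine in DNA, a first step towards removal of the methyl mark at promoters and enhancers. In B cells it takes part in the program of the germinal center, where activated B cells divide and mutate their antibody genes before they leave as memory or plasma cells, and it is recurrently mutated in human lymphoma. A deleted gene is inherited together with the DNA beside it, so the expression of its neighbours is read here against their distance from it. The neighbours have no common function. They include enzymes of fatty acid oxidation and elongation, sulfate activation and alcohol and aldehyde detoxification, factors of transcription and translation, and adaptors of B-cell receptor and innate signalling such as BANK1, DAPP1, TIFA and ALPK1.

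RNA from mouse spleen (strain C57BL/6 for all samples) was measured by RNA-seq in 14 libraries. The GC B cells gave 4 libraries with the genotype TET2 Knock-Out (replicates 2, 3, 4 and 5, called KO) and 3 with the genotype TET2 Wild-Type (replicates 1, 3 and 4, called WT). The B cells that the series title calls lymphoma cells were represented by 2 libraries labelled TET2 Knock-Down (shTet2, a short hairpin RNA against Tet2, replicates 1 and 2) and 5 control libraries that are also labelled TET2 Wild-Type (replicates 1 to 5). The age of the mice, the part of Tet2 that was deleted, the Cre or other driver of the deletion, the oncogene or other origin of the lymphoma and any pooling of mice are not stated in the labels. The labels do not say that replicates came from separate mice, so p-values reflect only how far these libraries differ, which may be technical in part.

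Total counts were 27191862 to 30434184 in the GC libraries and 6691167 to 18598386 in the lymphoma libraries. A hand-picked list of abundant structural RNA rows took 0.35% to 1.22% of counts in GC libraries, 54% to 74.2% in control lymphoma and 42.6% to 51.2% in shTet2 libraries, so single genes were measured on fewer reads in the lymphoma cells. Levels are given in CPM, reads of a gene relative to the TMM-normalised size of its library. Tet2 was at 11.9, 14.6, 13.3 and 14.5 CPM in KO and 13.4, 11.8 and 14.2 CPM in WT libraries, which overlap. Because the deleted exons are not known, this sum over the gene does not check the KO label, and directions below are those of libraries labelled KO. In lymphoma cells Tet2 was at 54.9 and 50.7 CPM in shTet2 and at 57.5 to 68 CPM in control libraries. The B-cell marker Ms4a1 was at 1630 to 1880 CPM in the GC and 597 to 765 CPM in the lymphoma libraries. Bcl6, the defining transcription factor of GC B cells, was at 414 to 461 CPM in KO, 354 to 456 in WT, 92 to 131 in shTet2 and 104 to 128 in control libraries. The GC B-cell receptor gene S1pr2 was at 420 CPM or more in every GC library, 18.2 to 29.9 in shTet2 and 1.44 to 5.92 in control libraries, while the GC marker Mef2b was near 0 throughout (at most 0.111 CPM in GC and 0.257 CPM in lymphoma libraries). Other features moved with the KO label. Of 16 myeloid markers tested, 12 were lower in KO and 0 higher (sums of 410 to 453 CPM against 600 to 661, with 2 of the 31 listed markers at 0 in KO and 4 in WT), and 4 Y-linked genes summed to 173 to 192 CPM in KO and 96.3 to 119 in WT libraries. Their part in the results on the neighbours was not tested, except that the mean log2 level of the Y-linked genes was also used as a covariate. In bulk RNA, fewer cells of a type and less RNA per cell cannot be told apart.

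In GC B cells, 5 of the 52 neighbours that passed the filter on low counts differed between libraries labelled KO and WT, or 9.62%. This stands beside 6.49% of the 13600 genes tested in that comparison (edgeR quasi-likelihood test, Benjamini-Hochberg adjusted p under 0.05). Hadh, Cyp2u1 and Papss1 were lower in KO cells, and Elovl6 and Zgrf1 were higher. Cyp2u1 passed the filter on low counts only through its WT libraries. With a filter at 1 CPM, which left it out, 4 of 45 neighbours passed, and 847 genes in the whole table. By direction, 3 of 52 were lower, beside 4.57% of all genes, and 2 of 52 were higher, beside 1.92%. The median log2 fold change of the 52 was 0.04 and their median absolute log2 fold change was 0.18, beside 0.01 and 0.15 for all genes. At an unadjusted p under 0.05 there were 13 of 52 (25%, beside 19.9%), and the KO and WT libraries did not overlap for 10 of 52 (19.2%, beside 18.3%). The share of neighbours that changed was therefore close to that of the genome. Without WT replicate 3 it was 3 of 52, while calls in the whole table went from 883 to 609. The other 13 of the 65 had too few counts for the test and are described only by their counts.

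**Figure D1:**
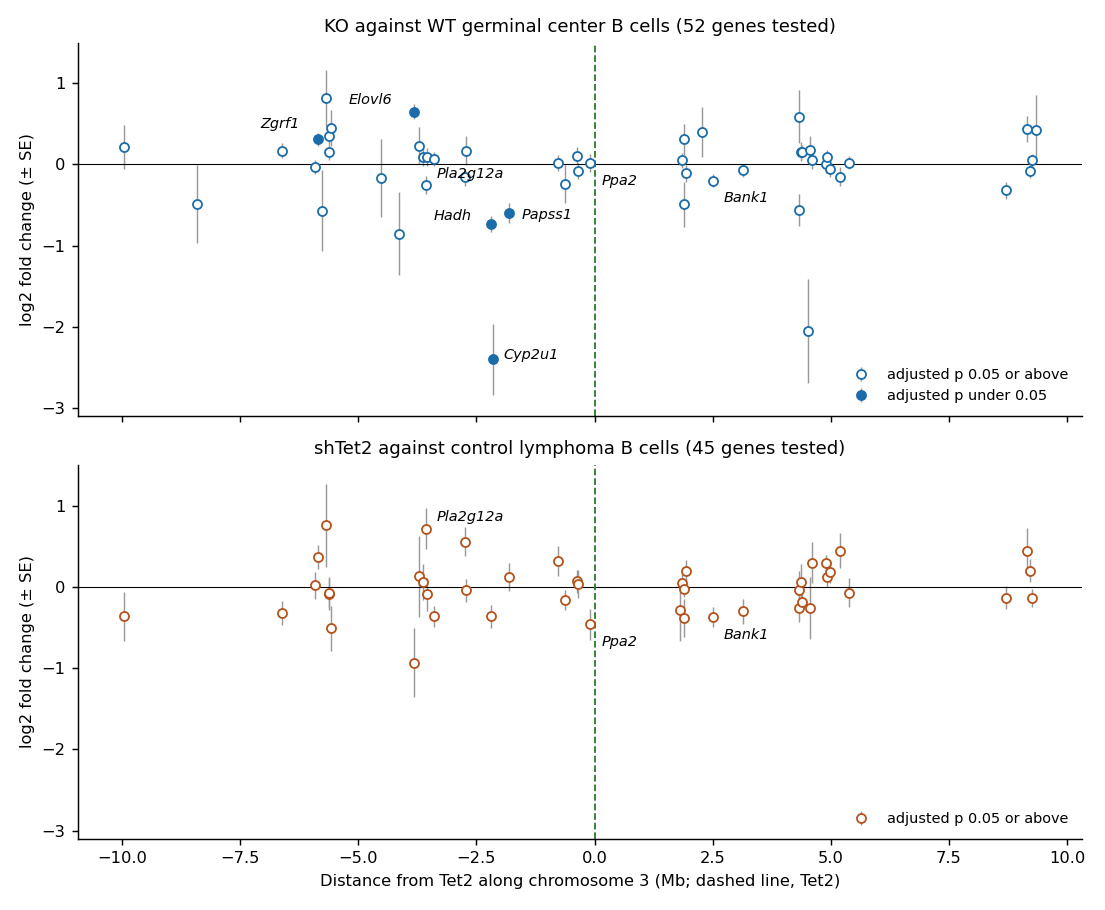
Each point is 1 gene within 10 Mb of Tet2, placed by its signed distance from Tet2 (x axis, Mb, negative at lower coordinates) and its log2 fold change with standard error (y axis), for KO against WT GC B cells above (52 genes) and shTet2 against control lymphoma cells below (45 genes). Filled points passed an adjusted p of 0.05: 5 in GC B cells, all at lower coordinates than Tet2, and 0 in lymphoma cells.

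Distance from Tet2 did not order the size of the changes. Among the 5 tested genes within 1 Mb, 0 changed and the median absolute log2 fold change was 0.08. Between 1 and 2 Mb, 1 of 5 changed (median 0.31), between 2 and 5 Mb 3 of 25 (median 0.17), and between 5 and 10 Mb 1 of 17 (median 0.31). The lowest median was thus that of the genes closest to the deleted gene, on 5 genes. The median of the nearest bin minus that of the farthest was -0.23, and -0.08 with bins of 2.5 Mb or -0.14 without WT replicate 4. Spearman's rho between distance and absolute log2 fold change was 0.06 over the 52 genes, 0.26 over the 28 at lower and -0.23 over the 24 at higher coordinates. These are descriptions across genes that share the same 7 libraries. The size of a change followed the number of reads more closely, with rho of -0.62 between a gene's counts and its absolute log2 fold change. On chromosome 3 outside the window, 39 of 549 genes changed (7.10%, median absolute log2 fold change 0.15). In its nearest stretch, 10 to 20 Mb from Tet2, 7 of 61 changed (11.5%) and all 7 were lower, with a median absolute log2 fold change of 0.20.

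**Figure D2:**
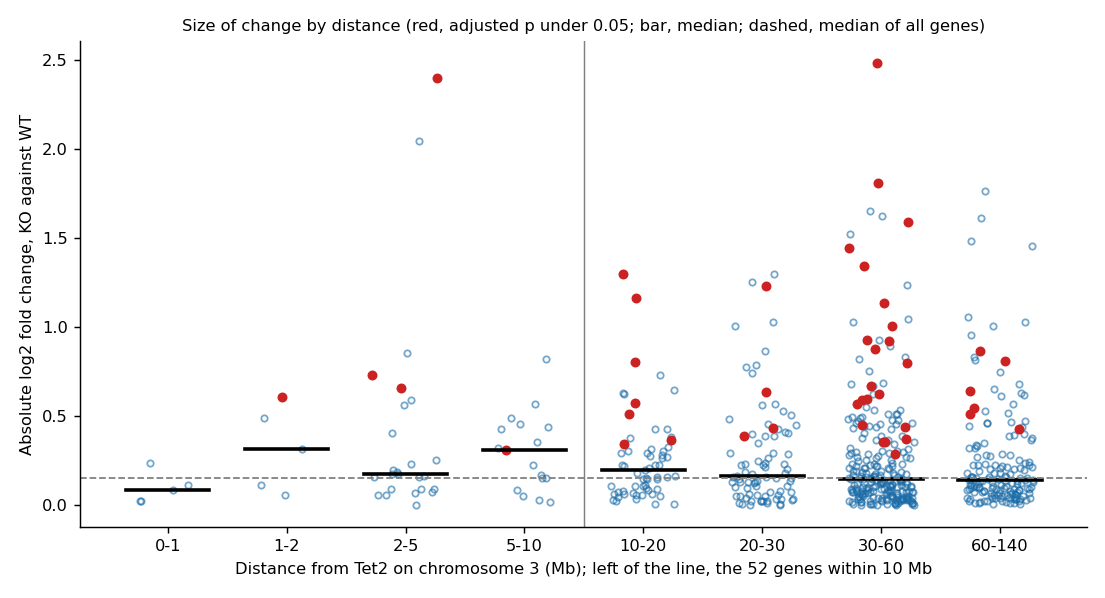
Absolute log2 fold change of KO against WT GC B cells (y axis) for every tested gene of chromosome 3, in bins of distance from Tet2 (x axis, Mb), with genes within 10 Mb left of the vertical line; red points passed an adjusted p of 0.05, thick bars are bin medians and the dashed line is the median of all 13600 genes (0.15). The bin medians within 10 Mb run from 0.08 (0 to 1 Mb) to 0.31 (1 to 2 and 5 to 10 Mb) and those beyond from 0.14 to 0.20.

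The 5 changed genes all lay at lower coordinates than Tet2, where 5 of 28 tested genes changed (17.9%), against 0 of 24 at higher coordinates, beside 6.49% of all genes. At unadjusted p under 0.05 the counts were 8 of 28 (28.6%) and 5 of 24 (20.8%), beside 19.9% of all genes. The difference between the sides was not tested. DESeq2 called Pdlim5 at higher coordinates (adjusted p = 0.047) and Tifa at lower (0.0397). By edgeR, Dnajb14 passed without KO replicate 3 (adjusted p = 0.0387) and 1110002E22Rik with no filter (0.0106), both at higher coordinates. Of the 5, Zgrf1 passed in 1 of 7 fits that left out a library. Cyp2u1 passed the filter on low counts only through its WT libraries. Papss1, Cyp2u1 and Hadh, the 3 that fell, are consecutive among the 65 genes, at 1.82, 2.16 and 2.19 Mb from Tet2. Of the 65 genes, those between them and Tet2 were Aimp1, Tbck, Gstcd, Ints12, Ppa2 and the barely detected Npnt. None of these passed, and Npnt had too few reads for the test. Rows left out by name or for low counts are not covered here.

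Hadh encodes the mitochondrial 3-hydroxyacyl-CoA dehydrogenase of fatty acid beta-oxidation, and lies on the minus strand of chromosome 3 from 131233419 to 131272101. Its level was 41.3, 32.5, 41.6 and 33.9 CPM in the KO libraries and 61.2, 63.1 and 61.9 CPM in the WT libraries. Every KO library was below every WT library, and the WT libraries lay close together. Hadh fell by 0.73 on the log2 scale (SE 0.10, a 1.66-fold lower level, adjusted p = 0.000326, edgeR).

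Papss1 encodes the enzyme that makes PAPS, the activated sulfate used by sulfotransferases, and lies on the plus strand from 131564768 to 131643670. Its level was 18.1, 17.1, 22.8 and 19.4 CPM in KO and 27.3, 33.8 and 27.1 CPM in WT libraries. Again no KO library reached the lowest WT library. Papss1 fell by 0.60 (SE 0.12, 1.52-fold lower, adjusted p = 0.00709, edgeR), and without WT replicate 3, its highest library, by 0.49 with an adjusted p of 0.0504.

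Cyp2u1 encodes a cytochrome P450 that hydroxylates long-chain fatty acids, and lies on the minus strand from 131290491 to 131303227. It was barely transcribed in these cells: the KO libraries held 4, 4, 3 and 6 reads (0.133, 0.131, 0.105 and 0.201 CPM) and the WT libraries 23, 23 and 22 reads (0.741, 0.763 and 0.816 CPM). The 2 groups were far apart for so low a count. Cyp2u1 fell by 2.40 (SE 0.44, 5.29-fold lower, adjusted p = 0.00326, edgeR), the largest fold difference among the 52 genes and the one on the fewest reads of the 5. It passed the filter on low counts only through the WT libraries, and a row as low in WT as in KO would not have been tested. A filter at 1 CPM removed it.

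Elovl6 encodes the elongase that extends palmitate to stearate, and lies on the plus strand from 129532386 to 129638495, 3.83 Mb from Tet2. Its level was 44.1, 47.2, 47.8 and 43.6 CPM in KO and 29.9, 31.0 and 26.1 CPM in WT libraries. All KO libraries lay above all WT libraries, with little spread within either group. Elovl6 rose by 0.65 (SE 0.09, 1.57-fold, adjusted p = 0.000511, edgeR).

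Zgrf1, a putative helicase with a GRF zinc finger linked to DNA repair, lies on the plus strand from 127553489 to 127618021, 5.85 Mb from Tet2. Its level was 74.7, 79.6, 72.6 and 76.7 CPM in KO and 65.2, 61.7 and 57.2 CPM in WT libraries, which do not overlap. Zgrf1 rose by 0.31 (SE 0.08, 1.24-fold, adjusted p = 0.0382, edgeR), the smallest change of the 5. Its adjusted p stayed under 0.05 in 1 of 7 fits that left out a library (without KO replicate 2, 0.0413) and reached 0.138 without WT replicate 4. None of the 5 genes overlaps another gene row. A further fit took the mean log2 CPM of the Y-linked genes as a covariate, and none of those genes overlaps between KO and WT. In it, 0 of the 5 passed, and 4 genes in the whole table did. In that fit the log2 fold changes kept their signs with larger errors, at -0.38 (SE 0.43) for Hadh, -0.13 (SE 0.52) for Papss1, -2.64 (SE 1.73) for Cyp2u1, 0.82 (SE 0.41) for Elovl6 and 0.18 (SE 0.36) for Zgrf1.

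**Figure D3:**
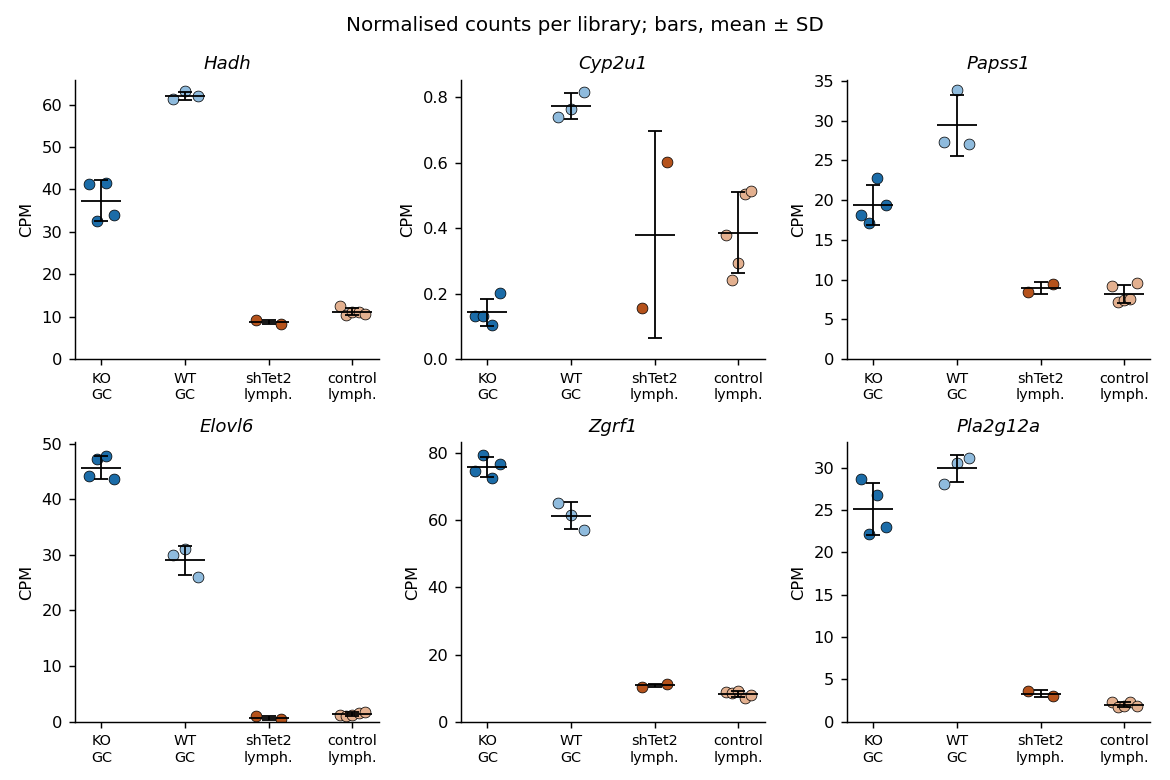
CPM of the 5 genes that changed in GC B cells and of Pla2g12a (y axes, each from 0) in every library of the 4 groups (x axis); horizontal bars are means and error bars SD. For Hadh, Cyp2u1 and Papss1 all 4 KO libraries lie below the 3 WT libraries, and for Elovl6 and Zgrf1 above them; Pla2g12a overlaps in GC B cells and is higher in both shTet2 libraries than in the 5 controls.

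The upstream sequences of 4 of the changed genes are shown because TET2 acts on cytosine followed by guanine. The first 3 are the 250 bases before the RefSeq start of each gene, and the fourth is the 140 bases between the starts of Zgrf1 and Larp7, which face away from each other (RefSeq, GRCm38.p6). Each is written 5′ to 3′ on the strand given, with every CG in capitals.
Hadh, chr3:131272102-131272351, minus strand: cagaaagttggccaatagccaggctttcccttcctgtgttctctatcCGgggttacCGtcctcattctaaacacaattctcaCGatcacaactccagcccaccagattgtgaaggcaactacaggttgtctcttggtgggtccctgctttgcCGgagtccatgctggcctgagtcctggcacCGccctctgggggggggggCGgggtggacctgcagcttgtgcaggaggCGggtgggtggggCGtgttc
Papss1, chr3:131564518-131564767, plus strand: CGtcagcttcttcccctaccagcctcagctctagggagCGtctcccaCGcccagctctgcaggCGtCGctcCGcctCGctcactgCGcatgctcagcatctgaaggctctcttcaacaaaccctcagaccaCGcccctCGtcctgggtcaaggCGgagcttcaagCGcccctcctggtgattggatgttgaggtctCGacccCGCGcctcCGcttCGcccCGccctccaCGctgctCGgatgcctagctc
Elovl6, chr3:129532136-129532385, plus strand: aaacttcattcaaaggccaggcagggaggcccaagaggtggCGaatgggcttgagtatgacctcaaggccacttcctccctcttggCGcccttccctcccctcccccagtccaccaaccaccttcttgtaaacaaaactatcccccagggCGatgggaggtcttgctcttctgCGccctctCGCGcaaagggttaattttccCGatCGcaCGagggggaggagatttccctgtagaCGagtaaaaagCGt
Zgrf1-Larp7, chr3:127553349-127553488, plus strand: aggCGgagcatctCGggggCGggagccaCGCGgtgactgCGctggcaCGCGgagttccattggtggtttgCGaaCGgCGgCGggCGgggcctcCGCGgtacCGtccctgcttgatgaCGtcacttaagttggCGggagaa

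The Hadh stretch holds 8 CG, and 80.4% of the 9314 promoters matched to tested genes hold at least as many in 250 bases. Elovl6 has 11 (71.0% hold at least as many) and Papss1 20 (35.1%). The short stretch between Zgrf1 and Larp7 holds 18, and 15.4% of promoter windows of that length hold at least as many. The genes that fell included both a CG-poor and a CG-richer upstream sequence. No DNA methylation was measured in the files used here. Of the 52 tested neighbours 76.9% matched a RefSeq promoter by symbol, and 68.5% of all tested genes, so a comparison of CG content between sets is void. Larp7, which encodes a 7SK RNA-binding protein and shares the stretch with Zgrf1, was at 137, 117, 137 and 110 CPM in KO and 128, 129 and 125 CPM in WT libraries. Its log2 fold change of -0.03 (SE 0.09) lay within the spread between libraries.

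None of the genes kept nearest to Tet2 on the lower-coordinate side passed the test. Ppa2, the mitochondrial inorganic pyrophosphatase, lies 85.4 kb from Tet2 and was at 25.9, 23.7, 26.4 and 21.8 CPM in KO and 24.1, 22.2 and 25.9 CPM in WT libraries. The groups overlapped fully, with a log2 fold change of 0.02 (SE 0.11). Ints12, a subunit of the Integrator complex, was at 36, 31, 34 and 28.7 CPM against 34.8, 35.6 and 32.5 (log2 fold change -0.08, SE 0.10). Its opposite-strand neighbour Gstcd was at 37, 37, 38.8 and 41.4 CPM against 38.4, 36.6 and 32 (0.11, SE 0.10). Ints12 and Gstcd overlap at their starts, and the counting recorded in the file headers names no strand option, so their reads may be mixed in part. Tbck, a Rab GTPase-activating protein family member linked to mTOR signalling, ranged from 3.13 to 7.29 CPM in KO and from 5.53 to 7 in WT libraries (-0.24, SE 0.23). Npnt, a basement membrane protein, held 12 reads over the 7 GC libraries and was not tested.

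On the other side the first genes kept were much farther away. Slc9b2 and Slc9b1, sodium-proton exchangers at 1.76 and 1.80 Mb, held 20 and 28 reads over the 7 GC libraries and were not tested there. Cisd2, an iron-sulfur protein of the endoplasmic reticulum and mitochondrial membrane, was at 51.1, 41.9, 46.3 and 48.3 CPM in KO and 44.1, 45.3 and 46.3 CPM in WT libraries (0.05, SE 0.09). Ube2d3, a ubiquitin-conjugating enzyme, was at 159, 129, 117 and 205 CPM in KO and 112, 115 and 140 CPM in WT libraries. The KO libraries were widely spread, and the difference of 0.31 on the log2 scale (SE 0.19) had an adjusted p of 0.417 (edgeR). The antisense-side row 4930539J05Rik, which overlaps the Ube2d3 start, went from 1.20 to 2.21 CPM in KO and from 1.78 to 2.96 in WT libraries (-0.49, SE 0.28). Neither of this overlapping pair passed the test.

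By role, the changed genes fell mostly among enzymes of lipid and small-molecule metabolism, where 4 of 9 tested genes changed (Elovl6 higher, Hadh, Cyp2u1 and Papss1 lower), beside 6.49% of all genes. The lists were drawn up with earlier results of these data known, and Cyp2u1 passed the filter only through its WT libraries. This count therefore does not single out metabolism. The median absolute log2 fold change of the 9 was 0.44. The other tested members did not pass: Ppa2 and Gstcd above, Manba, the lysosomal beta-mannosidase (-0.11, SE 0.10), Mttp, the lipid transfer protein of lipoprotein assembly (0.18, SE 0.17), and Ccbl2, a kynurenine aminotransferase. Ccbl2 was at 7.10, 6.53, 7.42 and 6.66 CPM in KO and 5.48, 5.47 and 4.38 CPM in WT libraries. These do not overlap, and the log2 fold change of 0.44 (SE 0.16) had an adjusted p of 0.126 (edgeR). Of the alcohol dehydrogenase cluster only Adh5, which encodes the formaldehyde-clearing class III enzyme, had 10 counts. Adh5 was at 147, 122, 156 and 123 CPM in KO and 125, 145 and 142 CPM in WT libraries, with a log2 fold change of 0.00 (SE 0.10).

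Of 13 genes of lymphocyte signalling and adaptors, 0 of 13 tested passed in GC B cells, with 5 at an unadjusted p under 0.05 by edgeR (38.5%, beside 19.9% of all genes). The list is a broad one that also holds Tbck, Tspan5 and the phospholipase gene Pla2g12a, which is 1 of the 5. Tspan5 is counted again among the surface proteins below. At an adjusted p under 0.05 limma-voom called 0 and DESeq2, which called 1266 genes in all against 883 by edgeR, called 2, Tifa and Pdlim5. Tifa, the TRAF6-binding adaptor that senses bacterial sugar metabolites together with the kinase ALPK1, was at 23.5, 26, 26.5 and 29.3 CPM in KO and 18.5, 22.7 and 20.6 CPM in WT libraries. No KO library was as low as the highest WT library, and the log2 fold change was 0.35 (SE 0.11, adjusted p = 0.0775, edgeR; 0.0397, DESeq2). Alpk1 itself was low, on 283 reads over the 7 GC libraries. It was at 1.17 to 2.17 CPM in KO and 0.519 to 1.36 in WT libraries (0.82, SE 0.34, adjusted p = 0.192, edgeR). Pdlim5, a PDZ and LIM domain scaffold of protein kinase C, was at 19.1, 21.1, 18.3 and 20.1 CPM against 25.1, 25.1 and 23.4. These groups too stand apart (log2 fold change -0.32, SE 0.10, adjusted p = 0.0803, edgeR; 0.047, DESeq2).

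Bank1, the B-cell scaffold that links the antigen receptor to calcium release, was the most heavily counted of the 65 genes. It was at 231, 241, 281 and 260 CPM in KO and 288, 285 and 299 CPM in WT libraries. The KO libraries all lay lower, but by little (log2 fold change -0.20, SE 0.08, adjusted p = 0.2, edgeR). Dapp1, an adaptor recruited by PI3-kinase lipids, had a log2 fold change of 0.16 (SE 0.08), Camk2d, a calcium and calmodulin-dependent kinase, 0.17 (SE 0.09), and Ppp3ca, the catalytic subunit of calcineurin, -0.07 (SE 0.08). Rap1gds1, a guanine nucleotide exchange factor for small GTPases, had 0.02 (SE 0.08), Pkn2, a protein kinase C-related kinase, 0.05 (SE 0.08), and Casp6, an apoptotic caspase, 0.09 (SE 0.11). All 6 were within 0.2 of no change on the log2 scale, with overlapping libraries.

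The 10 tested genes of RNA and translation formed the group with the smallest changes apart from Adh5 alone, with 0 passing, 1 at an unadjusted p under 0.05 and a median absolute log2 fold change of 0.08. Neither edgeR nor DESeq2 nor limma-voom called one. That 1 was Dnajb14, a membrane-bound co-chaperone, at 4.47, 5.98, 4.18 and 3.48 CPM in KO and 6.44, 5.94 and 7.72 CPM in WT libraries. These overlap in 1 library, and the log2 fold change was -0.56 (SE 0.20, adjusted p = 0.106, edgeR). Eif4e, the cap-binding initiation factor, was at -0.05 (SE 0.10), Gtf2b, general transcription factor IIB, at -0.08 (SE 0.09), Aimp1, a scaffold of the aminoacyl-tRNA synthetase complex, at 0.02 (SE 0.10), Gar1, of H/ACA ribonucleoproteins, at 0.09 (SE 0.11), and Metap1, a methionine aminopeptidase, at 0.09 (SE 0.09). Trmt10a, a tRNA methyltransferase, was at 0.05 (SE 0.11) and the ribosomal protein gene Rpl34 at 0.17 (SE 0.18).

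Of genes of organelles, secretion and transport, 0 of 6 tested passed, with 0 at an unadjusted p under 0.05 (DESeq2 0, limma-voom 0). Ostc, a subunit of the oligosaccharyltransferase, was at 99.4, 81.3, 94.6 and 78.4 CPM in KO and 85.5, 102 and 109 CPM in WT libraries (-0.16, SE 0.11). Ap1ar, an adaptor of AP-1 vesicle traffic that overlaps Tifa on the opposite strand, had 0.15 (SE 0.09), and Sec24b, a COPII coat cargo receptor, 0.07 (SE 0.09). Lamtor3, of the lysosomal Ragulator complex, had 0.16 (SE 0.12) and the zinc and manganese importer Slc39a8 0.40 (SE 0.31). H2afz, the histone variant H2A.Z, was at 37.5, 32.3, 20.1 and 47.5 CPM in KO and 20.2, 17.9 and 30.5 CPM in WT libraries. Its mean was higher in KO (log2 fold change 0.59), but the libraries overlapped widely and the SE was 0.33. Among secreted, matrix and surface proteins 3 of 7 could be tested and 0 passed: Egf, the epidermal growth factor precursor (0.23, SE 0.23), Tspan5, a tetraspanin (-0.15, SE 0.12), and Enpep, an aminopeptidase held on 80 reads over the 7 GC libraries (-0.85, SE 0.51).

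In lymphoma cells, labelled as a knock-down of Tet2 and not a deletion, 0 of 45 tested neighbours passed. This stands beside 2.58% of 12797 genes (edgeR quasi-likelihood test, adjusted p under 0.05). Tet2 itself was at 54.9 and 50.7 CPM in shTet2 against 57.5 to 68 CPM in control libraries, so little depletion is seen in its RNA. Of all genes tested, 1.84% were higher and 0.742% lower. At an unadjusted p under 0.05 there were 10 of 45 (22.2%, beside 19.1%), and DESeq2 and limma-voom each called 0. For 12 of 45 genes the 2 shTet2 libraries did not overlap the 5 controls (26.7%, beside 21.2%). The median absolute log2 fold change was 0.20, beside 0.22 for all genes, and Spearman's rho with distance was 0.10. The standard errors were larger than in GC B cells, with a median of 0.17 against 0.11, on fewer reads and only 2 shTet2 libraries. The shTet2 libraries also differed from each other: without shTet2 replicate 1, 7 of 47 genes passed (Elovl6, Sec24b, Tbck, Bank1 and Rap1gds1 lower, Ostc and Aimp1 higher) on a single shTet2 library assumed to vary like the controls, while 2481 genes passed in the whole table. Without the 2 shallowest controls 0 of 45 passed, but calls in the whole table went from 330 to 5. That fit could therefore hardly have called a neighbour. Of 6 plasma cell markers tested, 2 were higher in shTet2 and 0 lower (median log2 fold change 0.84, sums of 399 to 538 CPM against 254 to 345). Of 6 GC B-cell markers tested, 2 were also higher and 0 lower (median 1.6, sums of 146 to 175 CPM against 114 to 140). The part of these markers in the values of the neighbours was not tested.

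Set beside each other, the changed genes of the GC comparison did not move as a block in lymphoma cells. Hadh was at 9.12 and 8.31 CPM in shTet2 and 12.6, 10.4, 11.1, 11.2 and 10.6 CPM in control libraries. Both shTet2 libraries were below all controls, as in GC B cells (log2 fold change -0.36, SE 0.14, adjusted p = 0.196, edgeR). Papss1 was at 8.39 and 9.45 CPM against 9.20, 7.22, 7.39, 7.58 and 9.52, which overlap (0.12, SE 0.17). Zgrf1 was at 10.4 and 11.2 CPM against 8.82, 8.67, 9.27, 7.08 and 7.98, higher in both libraries as in KO cells (0.37, SE 0.15, adjusted p = 0.213, edgeR). Cyp2u1 had too few reads for a test in lymphoma cells alone. Ppa2, next to Tet2, was at 4.43 and 4.09 CPM against 5.92, 7.22, 5.46, 5.64 and 5.58 (-0.46, SE 0.19, adjusted p = 0.215, edgeR). Of the 44 genes tested in both comparisons 19 had the same sign (43.2%, beside 51.8% of 11679 genes), and Spearman's rho between the 2 fold changes was -0.02 across genes. The comparisons share no library.

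Some genes that did not pass still separated the lymphoma groups. This held for 12 of 45 neighbours (26.7%), beside 21.2% of all genes tested, so it is common. The genes below were picked from these after their values were seen. Bank1 was at 427 and 343 CPM in shTet2 and 490, 531, 559, 476 and 438 CPM in control libraries. It was lower in both, as it was in all KO GC libraries (-0.37, SE 0.12, adjusted p = 0.118, edgeR). Ostc was at 15.1 and 26.5 CPM against 12.7, 14.9, 13.3, 15 and 14.7, so its mean difference came mostly from shTet2 replicate 2 (0.56, SE 0.18, adjusted p = 0.125, edgeR). Sec24b was at 45.2 and 32.6 CPM against 49.5, 56.6, 50.6, 48.1 and 46.8 (-0.36, SE 0.13, adjusted p = 0.153, edgeR). Adh5 was at 21.8 and 25.5 CPM against 18.6, 17.6, 19.2, 19.9 and 20.8 (0.29, SE 0.11, adjusted p = 0.186, edgeR). Bank1 and Sec24b were lower and Ostc and Adh5 higher in both shTet2 libraries than in any control.

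**Figure D4:**
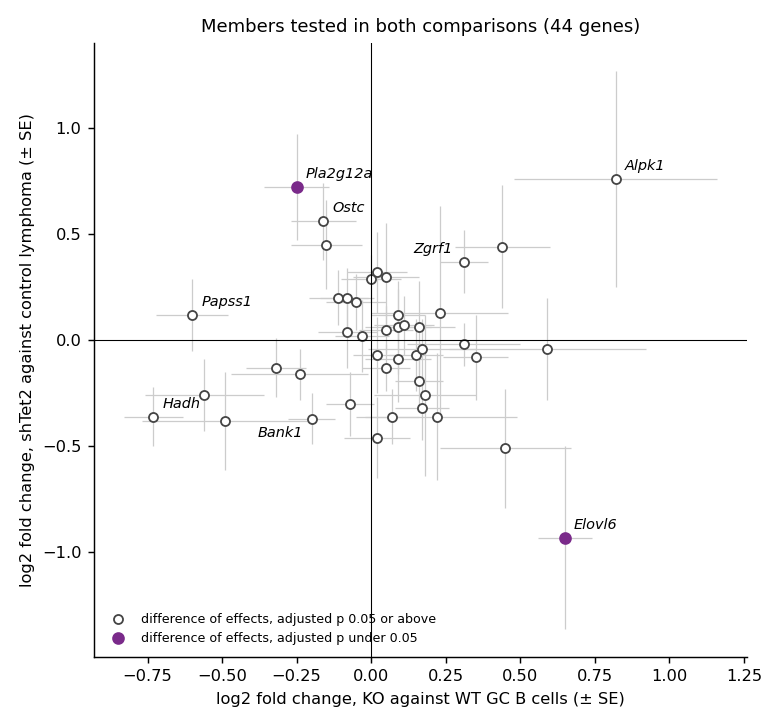
Log2 fold change of KO against WT GC B cells (x axis) and of shTet2 against control lymphoma cells (y axis), each with its standard error, for the 44 neighbours of Tet2 tested in both. Filled points, Elovl6 and Pla2g12a, are those whose difference between the 2 effects passed an adjusted p of 0.05; both lie in quadrants of opposite sign.

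The difference between the 2 effects was tested in 1 model of all 14 libraries, and 2 of 53 neighbours passed, beside 4.99% of 15441 genes. Of these, 1 was higher (1.61% of all genes) and 1 lower (3.39%). Elovl6 rose in KO GC B cells (above) and was at 0.991 and 0.402 CPM in shTet2 against 1.13, 0.963, 1.23, 1.52 and 1.80 CPM in control libraries. These are 19 and 6 reads against 9, 4, 21, 18 and 21, and shTet2 replicate 1 lay within the control range (-0.93, SE 0.43, adjusted p = 0.26, edgeR). The difference of the log2 fold changes was 1.62 (SE 0.32, adjusted p = 0.00524, edgeR), and 1.20 with an adjusted p of 0.0655 without shTet2 replicate 2. Pla2g12a, a secreted-type phospholipase A2, lies 3.57 Mb from Tet2 and was at 28.6, 22.2, 26.7 and 23.0 CPM in KO and 28.1, 30.5 and 31.1 CPM in WT libraries. In lymphoma cells it was at 3.60 and 3.02 CPM in shTet2 and 2.27, 1.69, 1.88, 2.36 and 1.80 CPM in control libraries, both shTet2 libraries above all controls. Neither effect passed alone (-0.25, SE 0.11, adjusted p = 0.22, and 0.72, SE 0.25, adjusted p = 0.152, edgeR). Their difference was -0.94 (SE 0.23, adjusted p = 0.0204, edgeR), with an adjusted p of 0.0706 without shTet2 replicate 1 and 0.103 by limma-voom. For Hadh and Papss1 the difference did not pass (-0.34, adjusted p = 0.274, and -0.69, adjusted p = 0.0622, edgeR), so by this test their fall is not shown to be particular to GC B cells. The same holds for Cyp2u1 (-2.21, SE 0.74, adjusted p = 0.0938, edgeR), which held 33 reads over the lymphoma libraries. For Zgrf1 the difference was -0.03 (adjusted p = 0.958, edgeR). For Papss1 the difference passed by DESeq2 (-0.69, adjusted p = 0.038) and in 3 of 14 edgeR fits that left out a library. Without shTet2 replicate 1 the difference passed for 7 of 57 neighbours, 4 higher and 3 lower, while the calls in the whole table went from 771 to 2001.

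The neighbourhood spans a wide range of levels. Per kilobase of exon, the highest mean levels in WT GC B cells were those of Ostc (93.3 CPM per kb), Bank1 (89.5), Aimp1 (88.7), Larp7 (67.9) and Gtf2b (64.9). The changed genes stood far lower, Hadh at 12.5, Papss1 at 11.3, Zgrf1 at 8.71, Elovl6 at 4.87 and Cyp2u1 at 0.332 CPM per kb. In control lymphoma cells the order was led by Bank1 (154 CPM per kb), Rpl34 (76.7) and Ube2d3 (27.4). Rpl34, a protein of the large ribosomal subunit with many near-identical pseudogene copies, so that its counts are uncertain, was at 6.73 CPM per kb in WT GC B cells. The 2 tables were scaled separately and their structural RNA shares differ, so levels are not compared between GC and lymphoma cells by a test.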

How the data were processed

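Stranded mRNA libraries were made from total RNA with a TruSeq kit, per the labels' protocols. STAR 2.3.0e and the build GRCm38.p3 are named in the submitters' processing notes. The values the authors deposited are raw counts of reads by gene name, from featureCounts 1.5.1 run without a strand option, in 2 tables of 7 libraries and 41053 rows, per the file headers. Libraries were mapped by title. The 65 genes, the role lists and the comparisons were chosen with earlier results of these data known. Counts were tested with edgeR 4.0.16 in R 4.3.3 (TMM scaling, filterByExpr by group, robust quasi-likelihood fits, Benjamini-Hochberg adjustment over all genes tested, threshold 0.05), within each table and, for the difference of effects, over all 14 libraries. The scripts were tested on simulated data. Distance is the gap between gene spans in the files. Replicates differed by more than counting error in every pair. Named genes were the 5 nearest on each side, all genes called, and up to 2 of each role list by smallest p; others are named for role, level or non-overlap, after their values were seen. The alternatives were other scalings, DESeq2 1.42.0, limma-voom (limma 3.58.1), other filters and thresholds, a replicate block, a Y-linked covariate, removal of structural RNA rows, other distances and leaving out each library. Leaving out the 2 shallowest control libraries was chosen after seeing the data. Promoters are from RefSeq (GRCm38.p6), matched by symbol.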

Additional observations from a re-analysis of the deposited data

Results flagged for a closer look

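The difference between the effect in GC B cells and that in lymphoma cells passed an adjusted p of 0.05 for Elovl6 (1.62 on the log2 scale) and Pla2g12a (-0.94), in the edgeR model of all libraries. Elovl6 rests on 4 to 21 reads per lymphoma library.

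In 3 of 52 groups of 4 or 5 libraries tested over the named genes, 1 library stood far from the rest by Dixon's criterion, which chance meets in about 1 in 20 groups. All 3 are control lymphoma libraries. Ppa2 was at 7.22 CPM in control replicate 2 (30 reads) and at 5.46 to 5.92 in the others. The uncharacterised row 4930539J05Rik was at 4.28 CPM in control replicate 3 (73 reads) and at 3.26 to 3.40 in the others. Npnt was at 0.126 CPM in control replicate 1, which is 1 read, and at 0 in the others.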

How the results depend on the processing

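The count of 5 neighbours called in GC B cells was 4 to 7 under the other scalings, tools, filters and thresholds, 0 with the Y-linked covariate and 3 to 6 when each library was left out. Calls in the whole table moved too, from 883 to 1266 by DESeq2 (7 neighbours), 609 without WT replicate 3 (3 neighbours) and 4 with the covariate. Of the 5, Hadh, Elovl6 and Cyp2u1 passed in all 7 fits that left out a library, Papss1 in 6 and Zgrf1 in 1. Cyp2u1 passed the filter on low counts only through its WT libraries, so its calls lend no support. A filter at 1 CPM removed it. The lymphoma count of 0 was 1 with no filter (Ostc) and 0 to 7 when each library was left out. The count of 2 for the difference was 1 at a threshold of 0.01, 1 by limma-voom, 3 by DESeq2 (with Papss1) and 2 to 7 when each library was left out. The median absolute change within 1 Mb minus that at 5 to 10 Mb, -0.23, was -0.18 by midpoint distance, -0.08 with bins of 2.5 Mb, -0.17 with no filter, -0.11 with a filter at 1 CPM, -0.10 with the Y-linked covariate and -0.26 to -0.14 when each library was left out. Same-numbered replicates did not deviate together (r of 0.03 and -0.02 in the GC comparison, -0.10 and 0.00 in the lymphoma comparison), so the numbers were not taken to pair libraries. With a replicate block 4 neighbours were called in GC B cells (Elovl6, Hadh, Papss1 and 1110002E22Rik) and 0 in lymphoma cells. Cyp2u1 had an adjusted p of 0.0568 and Zgrf1 0.14 (edgeR, GC B cells). Only replicates 3 and 4 occur in both GC groups, and only 1 and 2 in both lymphoma groups. The block fits compare groups through those libraries alone, and called 570 and 4 genes in the whole table. The sign of small changes turned in GC B cells for Adh5 (-0.01 with upper-quartile scaling, -0.00 by limma-voom and at 1 CPM, -0.05 with the block), Tbck (0.08), Cisd2 (-0.06) and Ube2d3 (-0.05) with the block, and with the Y-linked covariate for Ppa2 (-0.03), Ints12 (0.35), Gstcd (-0.10), Ube2d3 (-0.03), Pla2g12a (0.27), Metap1 (-0.33), Ostc (0.57), H2afz (-0.19), Enpep (0.32) and Tspan5 (0.84). In lymphoma cells it turned for H2afz by limma-voom (0.01), Ube2d3 with no filter (0.00) and Ints12 with the block (-0.17). With libraries left out, GC ranges crossing 0 were those of Ppa2 (-0.03 to 0.08) and Adh5 (-0.07 to 0.05). In lymphoma cells they were those of Ube2d3 (-0.05 to 0.02), H2afz (-0.27 to 0.15), Ints12 (-0.10 to 0.17), Tifa (-0.49 to 0.24), Ap1ar (-0.30 to 0.12), Tspan5 (-0.01 to 0.79), Tbck (-0.38 to 0.02), Slc9b1 (-0.70 to 0.01), Metap1 (-0.03 to 0.24) and Pdlim5 (-0.42 to 0.09), and for the difference of effects that of Zgrf1 (-0.09 to 0.06). The causes were not tested. In all, 774 of 847 values of single genes kept their direction and side of the threshold. The Y-linked covariate was not run in lymphoma cells, where those genes had 0 counts. The lymphoma values rest on fewer reads and on 2 shTet2 libraries, and the count moved with shTet2 replicate 1. Without the 2 shallowest controls it stayed at 0, but calls in the whole table fell from 330 to 5. That 0 therefore does not show that the count is stable.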

Other observations

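Among the rows with predicted or clone-based names, 1110002E22Rik, 4.52 Mb from Tet2 at higher coordinates, came nearest to passing in GC B cells. It was at 0.1, 0, 0.139 and 0.368 CPM in KO and 0.419, 0.796 and 0.705 CPM in WT libraries, which do not overlap. Its log2 fold change was -2.05 (SE 0.64, adjusted p = 0.0737 by edgeR, and 0.0106 with no filter on low counts) on 74 reads over the 7 libraries. Like Cyp2u1, it would not have passed the filter without its reads in WT. Its span overlaps the opposite-strand row Gm5105, which held 11 reads. In lymphoma cells 1110002E22Rik had 37 reads in all, too few for a test. The small nucleolar RNA row Snora24, at the edge of the window 9.96 Mb from Tet2, was at 3.21 to 6.80 CPM in KO and 2.65 to 5.05 CPM in WT libraries. The opsin-like gene Rrh and the complement factor Cfi, known mainly from other tissues, held 26 and 10 reads over the 7 GC libraries.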
